A study of Mus musculus with 12 samples.

Results

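The B and plasma cell genes described here are 7 of the 24341 genes with a symbol in the count table of this mouse aorta study: Cd79a, Cd79b, Ms4a1, Tnfrsf13c, Pou2af1, Jchain and Mzb1. They are a fixed list of names, chosen with earlier results of these data known. For each gene the RefSeq accession with the highest mean level stood for it, and 5 of the 7 reached the count needed for a test. Cd79b and Mzb1 did not, and are given as counts.

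The RNA came from aortas of 12 male C57BL/6J mice aged 10 weeks, with 4 mice per group and 1 library per mouse. In the PPE week 2 group the infrarenal aorta received porcine pancreatic elastase (PPE), which cuts the elastin of the vessel wall and serves as a mouse model of aneurysm, and tissue was taken at day 14. The PPE week 1 group received the same infusion and tissue was taken at day 7. The saline group had saline infused into the same segment and was also sampled at day 7, so the week 2 comparison differs from its control in both infusion and day. The labels name no transgene or deletion in any group.

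B cells recognise antigen through a membrane immunoglobulin that signals only together with the heterodimer of CD79A and CD79B. Mature B cells also carry CD20, the product of Ms4a1, and survive on the cytokine BAFF, which they bind through the receptor encoded by Tnfrsf13c. After activation some become plasma cells, which lose CD20 and secrete antibody with the help of proteins such as the joining chain Jchain and the endoplasmic reticulum protein MZB1. In the aorta, B cells are known mainly from the adventitia and from lymphoid aggregates next to diseased segments.

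The 250 bases before the transcription start were taken for 4 of the 7 genes, from RefSeq's promoter table for GRCm38.p6. Cd79b and Ms4a1 had no entry there, and Mzb1 was left out. The levels of the genes played no part in which windows are shown. The windows lie at chr7:24897247-24897496 on the plus strand for Cd79a, chr9:51213440-51213689 on the plus strand for Pou2af1, chr15:82224381-82224630 on the minus strand for Tnfrsf13c and chr5:88527898-88528147 on the minus strand for Jchain. Capitals mark matches, on either strand, to the octamer core TGCAAAT, the ETS motif GGAAGT, the PU box GAGGAA and TGACG, the core of the cyclic AMP response element.
Cd79a: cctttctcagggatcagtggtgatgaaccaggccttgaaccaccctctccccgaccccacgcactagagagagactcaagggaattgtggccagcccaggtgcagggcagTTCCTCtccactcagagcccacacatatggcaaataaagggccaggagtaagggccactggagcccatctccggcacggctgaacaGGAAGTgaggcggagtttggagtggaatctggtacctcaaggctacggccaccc
Pou2af1: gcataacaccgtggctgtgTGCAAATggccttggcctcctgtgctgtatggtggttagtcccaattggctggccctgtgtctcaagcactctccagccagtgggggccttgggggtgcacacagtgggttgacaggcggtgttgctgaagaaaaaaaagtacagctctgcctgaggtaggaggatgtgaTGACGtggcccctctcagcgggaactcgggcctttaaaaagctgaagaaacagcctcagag
Tnfrsf13c: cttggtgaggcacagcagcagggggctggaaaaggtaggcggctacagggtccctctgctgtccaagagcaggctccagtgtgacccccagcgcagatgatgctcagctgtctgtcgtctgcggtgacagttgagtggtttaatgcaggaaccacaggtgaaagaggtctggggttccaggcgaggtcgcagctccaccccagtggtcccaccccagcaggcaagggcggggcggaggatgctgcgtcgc
Jchain: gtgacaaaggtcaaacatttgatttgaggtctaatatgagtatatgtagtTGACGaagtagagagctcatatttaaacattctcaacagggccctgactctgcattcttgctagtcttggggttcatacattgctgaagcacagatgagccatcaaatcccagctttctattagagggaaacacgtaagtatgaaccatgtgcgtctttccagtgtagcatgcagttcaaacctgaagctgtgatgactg

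The octamer is the site at which the protein of Pou2af1 acts as a coactivator, together with Oct-1 or Oct-2, and the PU box is bound by PU.1 and Spi-B. The Pou2af1 window held the octamer core, beginning 231 bases before the start, and TGACG, beginning 61 bases before it. The Cd79a window held GGAAGT beginning 54 bases before the start and the reverse complement of the PU box beginning 140 bases before it. In the Jchain window TGACG began 200 bases before the start. The TATA-like hexamer TTTAAA, not capitalised, began 29 bases before the start in the Pou2af1 window and 179 bases before it in the Jchain window. Of 32851 promoter windows of the same length, 3.56% held the octamer core, 1.60% the full octamer ATGCAAAT that contains it, 19.7% GGAAGT, 23.3% GAGGAA, 17.8% TGACG and 12.1% TTTAAA. The inner part of the EBF motif, CCCNNGGG, was in 11.8% of windows. Neither it nor the full octamer was in the 4 windows shown, and the Tnfrsf13c window held none of the motifs searched. A site that departs from the letters CCCNNGGG is not found this way, so the search does not show that EBF sites are absent. The matches given are of letters in these windows only.

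The total count per library was 8343313 to 12269131. A precursor of ribosomal RNA, NR_046233, took 19.5 to 22.1% of the counts at PPE week 2, 21.0 to 34.6% at PPE week 1 and 36.2 to 49.9% in saline, so that it moved with the groups. Levels are given as counts per 1000000 counts, scaled by TMM, a factor that corrects for RNAs taking up a large share of a library, and are called CPM. A count of 0 allowed a level of up to 0.216 to 0.447 CPM depending on the library, which is the worth of 3 counts. That limit covers counting error only. It and the counting intervals given below take each count as a separate event. As 66.0 to 75.6% of counts of 2 to 20 were even, depending on the library, they may be too narrow. All 7 smooth muscle markers of the labelled tissue had counts, and 2 of 7 endothelial markers, Pecam1 and Tek, were listed at 0 in every library. Of 171 genes in the lists used here, 26 were listed at 0 throughout, and 18 of these have more than 1 RefSeq accession, as Pecam1 and the plasma cell factor Xbp1 do. A listed 0 is therefore not read as absence. In bulk tissue, fewer cells of a type and less RNA per cell cannot be told apart.

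Of the signalling subunits of the B cell receptor, Cd79a (NM_007655; chromosome 7, 24897497 to 24901858, mm10) had counts in all 12 libraries. Its level was 3.54, 23.60, 1.40 and 6.76 CPM at PPE week 2, from replicate 1 to replicate 4. The PPE week 1 aortas had 5.23, 5.31, 6.43 and 2.10 CPM, and the saline aortas 2.44, 1.79, 2.87 and 0.39 CPM. Replicate 2 of PPE week 2 stood highest, 3 of the 4 PPE week 1 libraries were above every saline library, and both PPE groups overlapped saline. The means were 8.83 ± 10.1 CPM at PPE week 2, 4.77 ± 1.86 at PPE week 1 and 1.87 ± 1.09 in saline (SD, n = 4 each). Against saline the fold was 4.67 at PPE week 2, with a 95% interval of 1.49 to 14.6, and edgeR's quasi-likelihood test gave an unadjusted p of 0.0112 and a Benjamini-Hochberg adjusted p of 0.146. Without replicate 2 of PPE week 2 the log2 fold change was 1.05 (adjusted p = 0.54, edgeR) in place of 2.22. PPE week 1 gave a log2 fold change of 1.34 ± 0.77 (SE; edgeR adjusted p = 0.34).

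The partner subunit Cd79b (NM_008339; chromosome 11, 106311341 to 106314562) had only 24 counts in all. There were 0, 0, 0 and 7 counts at PPE week 2, 0, 0, 6 and 2 at PPE week 1, and 8, 0, 1 and 0 in saline. The gene was thus at 0 in 7 of 12 libraries, and no group stood apart. A further accession of the gene, NM_001313939, overlaps it and had a count of 0 throughout. The handling of reads that both accessions share is not stated in the labels or files. The ratio of the summed and depth-scaled counts was 0.562 for PPE week 2 over saline, with an exact 95% counting interval of 0.178 to 1.70, and 0.689 for PPE week 1 over saline (0.231 to 2.01).

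Ms4a1 (NM_007641; chromosome 19, 11249679 to 11266149), which encodes the B cell surface protein CD20, had 4.38, 0, 0 and 6.62 CPM at PPE week 2. At PPE week 1 it had 4.22, 1.44, 4.26 and 0.20 CPM, and in saline 0, 0.89, 3.92 and 8.02 CPM. Each group therefore held libraries near 0 and libraries above 3 CPM, and the highest value was that of a saline aorta. The log2 fold change was -0.21 for PPE week 2 against saline, with a 95% interval of -3.46 to 3.04, and -0.33 for PPE week 1 against saline (-3.59 to 2.92). With edgeR's quasi-likelihood test the adjusted p-values were 0.968 and 0.942. Both intervals of Ms4a1 include large changes either way, and the direction turned without saline replicate 4, to 0.79 at PPE week 2 and 0.67 at PPE week 1.

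Tnfrsf13c (NM_028075; chromosome 15, 82221742 to 82224380), the BAFF receptor of mature B cells, had 1.87, 9.02, 0.09 and 0.86 CPM at PPE week 2. The PPE week 1 aortas had 3.03, 0, 0.90 and 1.40 CPM and the saline aortas 0.26, 0, 0.39 and 2.33 CPM. Replicate 2 of PPE week 2 was again highest, and the other 11 libraries lay at 3.03 CPM or below. PPE week 2 gave a log2 fold change against saline of 1.97 ± 1.43 (SE; edgeR adjusted p = 0.541), which was 0.33 without that library, 3.66 without saline replicate 4 and 0.01 with the NR_046233 share as covariate. PPE week 1 gave 0.83 ± 1.40 (edgeR adjusted p = 0.815), which was 0.05 without replicate 1 of PPE week 1 and 2.52 without saline replicate 4.

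Pou2af1 (NM_011136; chromosome 9, 51213690 to 51240079) encodes the octamer coactivator OBF-1, which germinal centre formation requires. Its level was 1.12, 19.09, 1.14 and 8.85 CPM at PPE week 2, 7.53, 2.54, 2.02 and 1.70 CPM at PPE week 1, and 1.74, 0.89, 1.05 and 5.44 CPM in saline. The PPE week 2 libraries fell apart into replicates 2 and 4, above every saline library, and replicates 1 and 3, below the saline maximum. The log2 fold change against saline was 1.72 ± 0.90 at PPE week 2 (edgeR unadjusted p = 0.0717, adjusted p = 0.354), or 0.71 without replicate 2 of PPE week 2, 2.59 without saline replicate 4 and 0.55 with the NR_046233 share as covariate. At PPE week 1 it was 0.59 ± 0.88 (edgeR adjusted p = 0.786), and it turned to -0.13 without replicate 1 of PPE week 1 and was 1.46 without saline replicate 4.

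Jchain (NM_152839; chromosome 5, 88519809 to 88527897), whose protein links the subunits of secreted IgM and IgA, had the most counts of the 7 genes, 1328 in all. Its level was 2.15, 18.80, 15.68 and 14.97 CPM at PPE week 2 and 26.44, 18.58, 3.14 and 1.60 CPM at PPE week 1. The saline aortas lay closer together, at 4.96, 8.34, 7.97 and 4.40 CPM. Of the PPE week 2 libraries, 3 were above all saline libraries and replicate 1 was below all of them. At PPE week 1, replicates 1 and 2 were above and replicates 3 and 4 below, so that in both weeks the PPE libraries lay on both sides of saline. The means were 12.9 ± 7.36 CPM at PPE week 2, 12.4 ± 12.1 at PPE week 1 and 6.42 ± 2.03 in saline (SD, n = 4 each). The log2 fold changes against saline were 1.01 ± 0.78 at PPE week 2 and 0.95 ± 0.78 at PPE week 1, with edgeR adjusted p-values of 0.589 and 0.564. With the NR_046233 share as covariate they were 3.26 at PPE week 2 and 1.94 at PPE week 1. The PPE week 1 value was 0.27 without replicate 1 of PPE week 1.

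Mzb1 (NM_027222; chromosome 18, 35647265 to 35650266), which helps immunoglobulin assemble in the endoplasmic reticulum of marginal zone B cells and plasma cells, had 71 counts in all. There were 0, 0, 3 and 20 counts at PPE week 2, 22, 21, 1 and 3 at PPE week 1, and 0, 0, 0 and 1 in saline. In scaled terms 3 of 12 libraries passed 1.01 CPM, the level that 4 libraries must reach for a test. These were replicate 4 of PPE week 2 and replicates 1 and 2 of PPE week 1. The summed and depth-scaled counts were 36.4 times those of saline at PPE week 1, with an exact counting interval of 6.23 to 1469. For PPE week 2 over saline the ratio was 16.6 (2.70 to 685). These intervals cover counting error and leave out the spread between mice. With the low-count filter lifted, edgeR gave Mzb1 an unadjusted p of 0.0294 and an adjusted p of 0.242 for PPE week 1 against saline, and an adjusted p of 0.414 for PPE week 2. The annotated exons of Mzb1 share 695 of their 1215 bases with SPATA24, as the GENCODE annotation names it, on the same strand, so part of these counts cannot be assigned to Mzb1 with certainty.

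**Figure D1:**
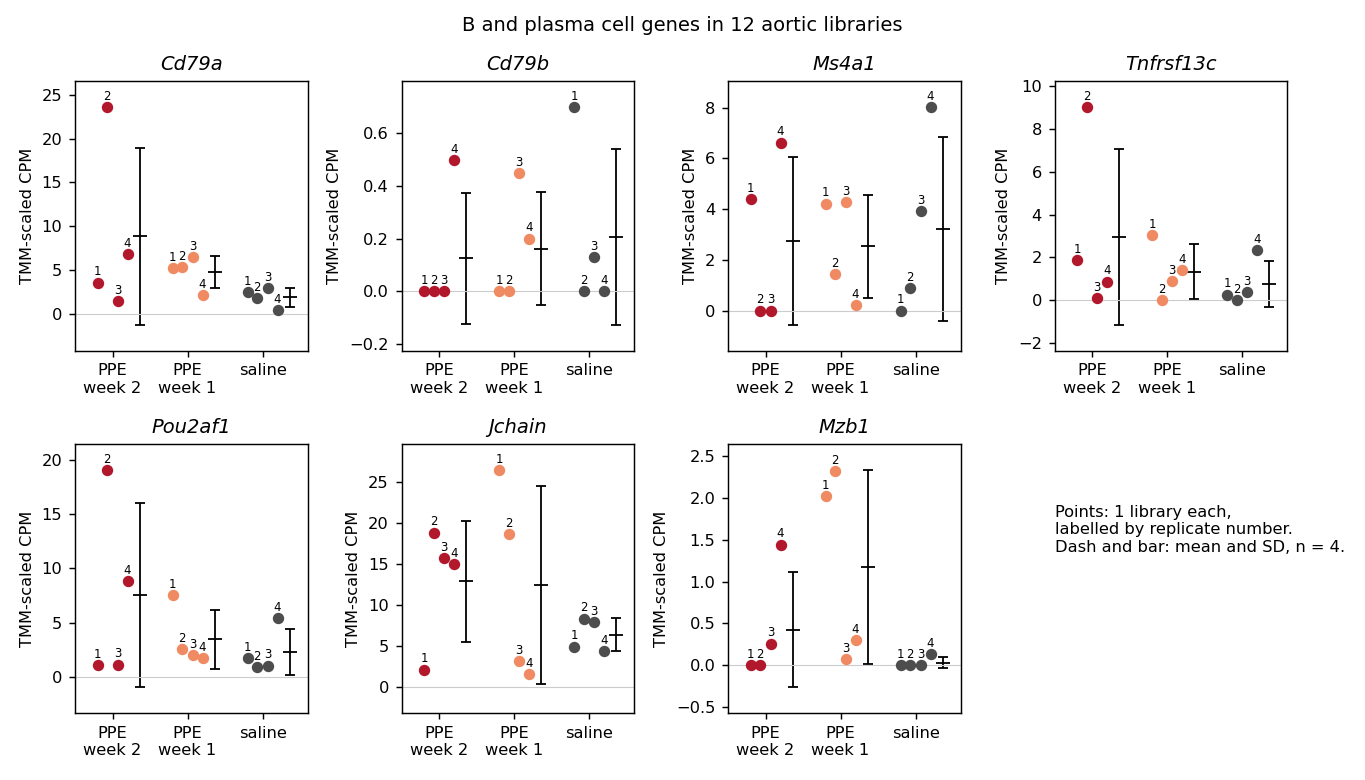
Level of each of the 7 genes in TMM-scaled CPM (vertical axes, separate linear scales) in the 4 libraries each of PPE week 2, PPE week 1 and saline, with the mean and SD beside each group. Replicate 2 of PPE week 2 stands highest for Cd79a at 23.60, Tnfrsf13c at 9.02 and Pou2af1 at 19.09 CPM, while the groups overlap for every gene.

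Against saline, PPE week 2 showed higher mean levels of Cd79a, Tnfrsf13c, Pou2af1 and Jchain, carried by some mice and not others. None of the 5 tested genes was called higher or lower at an adjusted p under 0.05 by edgeR, DESeq2 or limma-voom, where edgeR called 2.65% of the 12756 features tested. Cd79a was the only 1 of the 5 with an unadjusted p under 0.05, against 16.6% of all features. The fold change was above 0 for 4 of the 5, against 53.7% of all features, and their median log2 fold change was 1.72, against 0.05. The libraries of PPE week 2 and saline overlapped for all 5, while they were apart for 8.99% of features, 4.55% with PPE week 2 higher. A two-sided exact permutation test over CPM gave p = 0.143 for Cd79a and for Jchain, 0.286 for Pou2af1 and 0.371 for Tnfrsf13c, among 15 such tests over the 3 comparisons. The smallest p that 4 libraries against 4 allow is 0.0286.

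The comparison of PPE week 1 with saline has the same day of harvest in both groups. The edgeR, DESeq2 and limma-voom tests called 0 of the 5 genes, and edgeR gave none an unadjusted p under 0.05. Among all features edgeR called 7.89%, and 21.7% had an unadjusted p under 0.05. The fold change was above 0 for 4 of the 5 genes, against 50.2% of all features, with a median of 0.83 against 0.00. For Cd79a the exact permutation p was 0.0857 and for Jchain 0.429. Groups overlapped for all 5, while those of 21.1% of features did not, 12.1% with PPE week 1 higher.

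Between the PPE weeks, week 2 over week 1, the log2 fold changes were 1.14 ± 1.37 for Tnfrsf13c, 1.13 ± 0.87 for Pou2af1, 0.88 ± 0.74 for Cd79a, 0.12 ± 1.51 for Ms4a1 and 0.05 ± 0.77 for Jchain. Again 0 of 5 were called by edgeR, DESeq2 or limma-voom, and 0 had an unadjusted p under 0.05 with edgeR. Among all features, edgeR called 6.59% and 20.5% had an unadjusted p under 0.05. The weeks overlapped for all 5 genes and were apart for 15.9% of features, 7.24% with week 2 higher. For the 5 genes the edgeR adjusted p-values were 0.526 to 0.983. All 5 fold changes were above 0, against 51.3% of all features. Without replicate 2 of PPE week 2, Tnfrsf13c turned to -0.50, Cd79a to -0.28 and Jchain to -0.18, and Pou2af1 was at 0.12.

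The spread of these genes between mice was large. Their coefficient of variation beyond counting error, as edgeR estimates it, was 1.48 for Ms4a1, 1.25 for Tnfrsf13c, 0.824 for Pou2af1, 0.73 for Jchain and 0.714 for Cd79a, against a median of 0.406 over all features tested. The median SE of their log2 fold changes was 0.90 at PPE week 2 and 0.88 at PPE week 1, both against saline, where all features had 0.41. The intervals show what this spread allowed. For Cd79a at PPE week 1 the 95% interval of the fold against saline ran from 0.824 to 7.77.

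**Figure D2:**
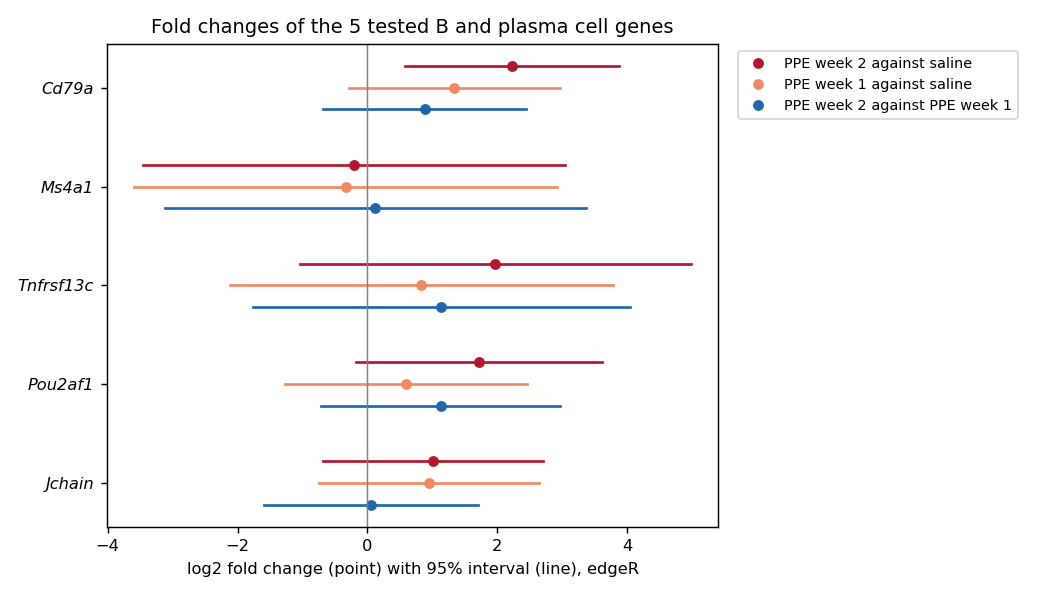
Log2 fold change (points, horizontal axis) with its 95% interval (lines) for the 5 tested genes in each of the 3 comparisons, from edgeR. The interval of Cd79a for PPE week 2 against saline, 0.58 to 3.87, is the only 1 of the 15 that leaves out 0, and no adjusted p was under 0.05.

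Read across libraries, the values were concentrated in a few aortas. Replicate 2 of PPE week 2 held 44.8% of the summed CPM of Tnfrsf13c over the 12 libraries, 38.1% of that of Cd79a and 35.9% of that of Pou2af1. The same library held 14.8% of Jchain and 0% of Ms4a1, so the genes did not all peak together. Replicate 4 of PPE week 2 and replicate 1 of PPE week 1 were each among the top 3 libraries for 3 of the 5 tested genes. Replicate 1 of PPE week 1 held the most Jchain, at 20.8%, while saline replicate 4 held the most Ms4a1, at 23.6%. Replicates 1 and 2 of PPE week 1 held 30.8% and 35.5% of Mzb1. Over the 12 libraries the Pearson r of log2 CPM between pairs of the 5 genes ran from -0.12 for Cd79a with Ms4a1 to 0.71 for Pou2af1 with Tnfrsf13c, values that share the same libraries and their depth.

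Leukocyte markers moved with the same libraries at PPE week 2. The summed CPM of 8 pan-leukocyte genes was 522, 1333, 567 and 1488 at PPE week 2, 1596, 1633, 1357 and 1519 at PPE week 1 and 493, 495, 580 and 455 in saline. The summed CPM of the 7 B and plasma cell genes was 13.1, 70.5, 18.6 and 40.0 at PPE week 2, 48.5, 30.2, 17.3 and 7.48 at PPE week 1 and 10.1, 11.9, 16.3 and 20.7 in saline. The PPE week 2 libraries with the higher sums, replicates 2 and 4, were the same in both lists. At PPE week 1 the pan-leukocyte sums lay within a narrow band while the B and plasma cell sums differed several-fold between mice. Jchain alone gave 26.44, 18.58, 3.14 and 1.60 CPM of the B and plasma cell sums at PPE week 1, and Cd79a 5.23, 5.31, 6.43 and 2.10 CPM. Laptm5, with a mean of 1084 CPM at PPE week 1, was the largest part of the pan-leukocyte sums. T and NK cell markers, 1 of 16 of them (Klrb1c) at 0 in every library, summed to 26.8 to 158 CPM at PPE week 2, 148 to 210 at PPE week 1 and 23.9 to 44.2 in saline. Macrophage markers, 1 of 12 of them (Itgam) at 0, summed to 1471 to 3638 CPM at PPE week 2, 4327 to 5508 at PPE week 1 and 2288 to 2725 in saline. These ranges were highest at PPE week 1, as were those of T and NK cells. Markers of plasmacytoid dendritic cells, some of which also express genes of B cells, included 1 of 10, Siglech, at 0. They summed to 81.8 to 316 CPM at PPE week 2, 357 to 441 at PPE week 1 and 77.5 to 150 in saline. Most of these sums came from Bst2, Tlr9 and Clec12a, with means of 146, 142 and 95.1 CPM at PPE week 1. Tcf4 and Runx2 had lower means at PPE week 1 than in saline, 3.65 against 4.6 and 0.936 against 1.23 CPM, and edgeR called neither. The fold change was above 0 for 4 of the 6 tested markers at PPE week 1. The 7 smooth muscle markers summed to 4188 to 9450 CPM at PPE week 2, 1496 to 2726 at PPE week 1 and 4495 to 6006 in saline. The part of these shifts, and of the ribosomal precursor share, in the values of the 7 genes was not tested.

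**Figure D3:**
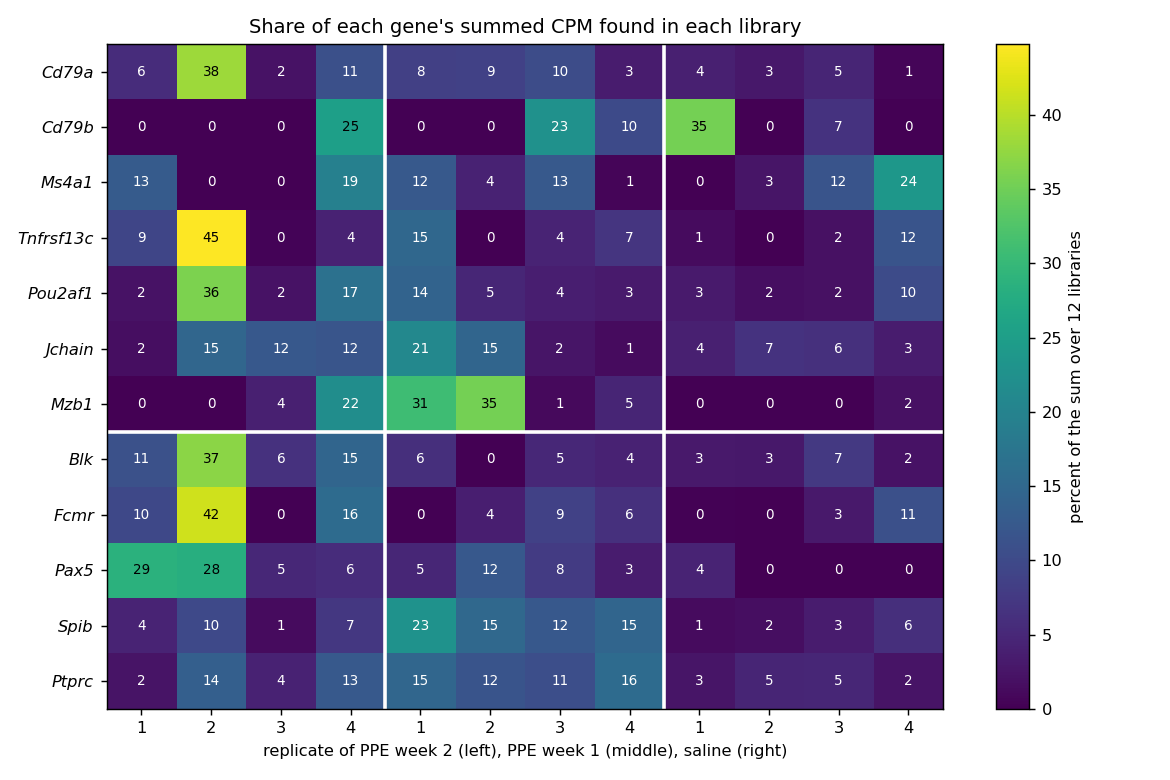
Percent of each gene's summed CPM over the 12 libraries (colour and printed number) found in each library, with replicates of PPE week 2 at left, PPE week 1 in the middle and saline at right. The rows above the white line are the 7 genes, and those below are other B lineage genes chosen after their values were seen, with Spib and Ptprc. Replicate 2 of PPE week 2 holds the largest share of Cd79a, Tnfrsf13c and Pou2af1, and saline replicate 4 that of Ms4a1.

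Levels of different genes were compared per kilobase of transcript. At PPE week 2 the order of mean CPM per kilobase was Jchain at 9.26, Cd79a at 6.06, Pou2af1 at 2.96, Tnfrsf13c at 1.54, Ms4a1 at 0.895, Mzb1 at 0.471 and Cd79b at 0.105. At PPE week 1 the values were 8.93 for Jchain, 3.27 for Cd79a, 1.35 for Pou2af1, 1.30 for Mzb1, 0.823 for Ms4a1, 0.692 for Tnfrsf13c and 0.136 for Cd79b. In saline they were 4.61 for Jchain, 1.28 for Cd79a, 1.04 for Ms4a1, 0.894 for Pou2af1, 0.388 for Tnfrsf13c, 0.173 for Cd79b and 0.0358 for Mzb1. Jchain thus led in every group. Cd79a and Cd79b, whose proteins pair with each other, lay far apart on this scale, and the counting of the overlapping Cd79b accessions bears on the lower value in a way that was not tested. Neighbours in these orders had overlapping libraries in every group, with the exception of Jchain and Cd79a in saline, where the lowest Jchain library was above the highest Cd79a library.

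Further genes linked to B lineage biology were counted in 6 lists, 53 of whose 89 genes were tested. The lists are not restricted to genes of B cells. In saline Cxcl12 averaged 342 CPM and Pdia4 212 CPM, where Cd79a averaged 1.87 CPM. At PPE week 1 against saline 7 rose and 0 fell with edgeR, which is 13.2% of the tested genes, beside 3.98% higher and 3.91% lower over all features. At PPE week 2 against saline 1 rose and 0 fell, or 1.89%, beside 1.30% higher and 1.35% lower over all features. Between the weeks 0 rose and 3 fell, or 5.66%, beside 3.77% and 2.82%. The median log2 fold changes over the 53 genes were 0.41 at PPE week 2 and 0.70 at PPE week 1, both against saline, and -0.52 for week 2 against week 1. With the NR_046233 share, which differed between the groups, as a covariate in the model, none of these 11 calls remained, at edgeR adjusted p-values of 0.0722 to 0.997. The log2 fold change of Irf4 was then 0.09 in place of 1.43, while those of the other 10 calls kept their direction, with 2.52 in place of 2.01 for Ikzf3, 1.52 in place of 1.39 for Plcg2, 2.25 in place of 2.39 for Spib and, between the weeks, -1.49 in place of -1.33 for Cd38. The NR_046233 share did not overlap between saline and either PPE group, so the covariate fit cannot fully part it from the infusion. Calls over all features in that fit are not reported here. Across settings they fell to as few as 23 higher and 59 lower at PPE week 1 against saline, in place of 508 and 499. The loss is therefore not read as particular to these genes. Counts of list calls also rose under some settings. In the B cell surface list 4 genes rose at PPE week 1 without PPE week 2 replicate 1 or replicate 2, 5 with DESeq2 and 7 with only the 8 libraries compared, in place of 1. In the plasma cell list 6 genes fell between the weeks without PPE week 2 replicate 4, and 4 with DESeq2 or limma-voom, in place of 2. Calls over all features rose too. Features higher at PPE week 1 reached 790 with a library left out and 1111 under other settings, in place of 508. Features lower between the weeks reached 603 and 651, in place of 360. Whether the lists gained more than all features was not tested. At PPE week 1 against saline the main edgeR fit also called genes of other leukocyte lists higher. These were 3 of 8 tested pan-leukocyte, 3 of 12 T and NK cell, 3 of 11 macrophage and 3 of 6 plasmacytoid dendritic cell genes. Of 5 tested neutrophil genes 0 were called. Calls at PPE week 1 were thus not particular to the B lineage lists.

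Among 13 tested genes of B cell surface and receptor signalling, Plcg2, the phospholipase that the B cell receptor and myeloid Fc receptors use, rose at PPE week 1 to a mean of 161 CPM, against 61.2 in saline. Its log2 fold change was 1.39 ± 0.30 (edgeR adjusted p = 0.0141), and the adjusted p was 0.0501 without saline replicate 4. Of 9 tested transcription factors, Spib and Ikzf3 rose at PPE week 1. Spi-B, known from B cells and plasmacytoid dendritic cells, averaged 13.3 CPM against 2.54 in saline (2.39 ± 0.61, edgeR adjusted p = 0.0244). That call was lost without any one of saline replicates 1, 2 and 3 and PPE week 1 replicates 1 and 2, at adjusted p-values of 0.0577 to 0.079. Ikzf3, the Ikaros family factor Aiolos of lymphocytes, averaged 38.3 against 9.56 CPM (2.01 ± 0.46, edgeR adjusted p = 0.0154, and 0.0604 without saline replicate 4). The plasma cell and T cell factor Irf4 rose at PPE week 2, to 31.4 CPM against 11.6 in saline (1.43 ± 0.35, edgeR adjusted p = 0.0404). Its adjusted p passed 0.05 in 9 of 12 fits that left out a library, at 0.0588 to 0.0963, all but those without saline replicates 1 and 4 and PPE week 2 replicate 1. With the NR_046233 share as covariate the log2 fold change of Irf4 was 0.09. The replicate block gave Irf4 an adjusted p of 0.0616 and a fit of only the 8 libraries compared 0.14, both with edgeR.

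In the BAFF and APRIL list of 9 genes, 5 of them tested, the kinase Map3k14 (NIK), which relays signals of the BAFF receptor, rose at PPE week 1 to 53.5 CPM against 19.9 in saline. The log2 fold change was 1.43 ± 0.30 (edgeR adjusted p = 0.00887), and the call held without each library in turn. Tnfsf13b, which encodes BAFF itself, had 12.78, 32.13, 13.31 and 23.89 CPM at PPE week 2, 13.03, 16.92, 17.06 and 18.56 CPM at PPE week 1 and 13.93, 18.03, 7.58 and 8.54 CPM in saline. Replicates 2 and 4 of PPE week 2 were above all saline libraries and replicates 1 and 3 were not. Its edgeR adjusted p was 0.281 for PPE week 2 against saline. It was named after its values were seen.

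Of 15 tested plasma cell surface and secretory genes, the surface proteins Slamf7 and Cd38 rose at PPE week 1, and both are also found on other activated leukocytes. Slamf7 averaged 87.4 CPM against 34.3 in saline (1.35 ± 0.33, edgeR adjusted p = 0.0233). It was not called in 6 of 12 fits that left out a library, saline replicates 1, 3 and 4 and PPE week 1 replicates 1, 2 and 3, at 0.0503 to 0.0708. Cd38 averaged 49.3 CPM against 23.4 in saline (1.07 ± 0.26, edgeR adjusted p = 0.0182), and its adjusted p was 0.0923 without PPE week 1 replicate 2. Between the weeks Cd38 fell to 19.5 CPM at PPE week 2, against 49.3 at PPE week 1 (-1.33 ± 0.26, edgeR adjusted p = 0.00588), a call that held without each library in turn. Edem1, which sorts misfolded glycoproteins for degradation, fell to 114 CPM at PPE week 2, against 175 at PPE week 1 (-0.62 ± 0.17, edgeR adjusted p = 0.0376). That call was lost in 7 of 12 such fits, at 0.051 to 0.119, namely those without saline replicate 3, any PPE week 1 library, or PPE week 2 replicates 1 and 3. Scaling by library size gave 0.31, the 8 libraries alone 0.0917 and the replicate block 0.0537. The median log2 fold change of the 15 was -0.16 at PPE week 2 and 0.06 at PPE week 1 against saline.

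Among 9 tested homing and lymphoid aggregate genes, the lymphotoxin subunit Ltb rose at PPE week 1 to 16.2 CPM against 2.69 in saline (2.59 ± 0.73, edgeR adjusted p = 0.0425). The chemokine receptor Cxcr4 fell at PPE week 2 to 22.6 CPM against 64.3 at PPE week 1 (-1.51 ± 0.41, edgeR adjusted p = 0.0427). Each of these calls was lost in 9 of 12 fits that left out a library, at 0.0521 to 0.126 for Ltb and 0.0552 to 0.125 for Cxcr4. The fits that kept the call were those without PPE week 2 replicates 1, 3 and 4 for Ltb, and without saline replicate 1 and PPE week 2 replicates 2 and 4 for Cxcr4. With no low-count filter the adjusted p was 0.0599 for Ltb and 0.0997 for Cxcr4, limma-voom gave 0.102 for Ltb, and scaling by library size gave 0.111 for Cxcr4. Of 9 early B cell development genes only Il7r and Flt3 could be tested, and neither was called by edgeR. Il7r averaged 38.5 CPM at PPE week 2, 58.9 at PPE week 1 and 37.0 in saline, and Flt3 averaged 9.30 CPM at PPE week 2, 27.6 at PPE week 1 and 11.0 in saline.

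**Figure D4:**
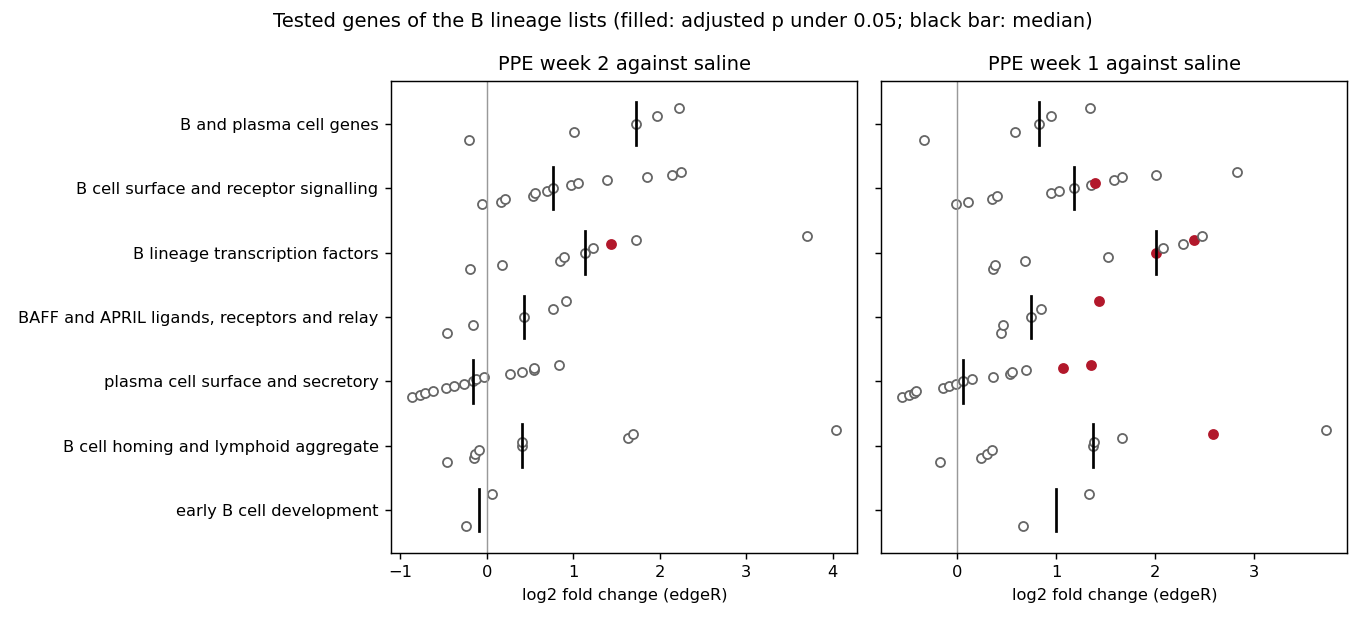
Log2 fold change (horizontal axis) of each tested gene of the 7 B and plasma cell genes and the 6 further lists, for PPE week 2 against saline (left) and PPE week 1 against saline (right). Filled points have an edgeR adjusted p under 0.05 and black bars are list medians. The 5 tested B and plasma cell genes have medians of 1.72 and 0.83 and no filled point.

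Over the 12 libraries the genes whose log2 CPM ran most like that of Cd79a were Fcgr2b, the inhibitory Fc receptor of B cells and myeloid cells (Pearson r = 0.889), Tbc1d10b (0.879) and Aagab (0.877). For Jchain they were Lrrc73 (0.838), Txndc5, an endoplasmic reticulum disulfide isomerase (0.814), and Gm19897 (0.779). For Pou2af1 they were Slc46a3 (0.858), Dera (0.844) and Cd27, a receptor of memory B cells and T cells (0.837). Tnfrsf13c ran most like Purg (0.904) and Pafah1b3 (0.841), and Ms4a1 most like Naaladl1 (0.987), Hmgb1 (0.885) and Nudt1 (0.884). Likeness was taken per accession, not per gene. Several of these accessions are themselves sparse, Naaladl1 with 98 counts in all, Lrrc73 with 92 and the Hmgb1 accession with 173.

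The authors' deposited table for PPE week 1 and the control listed 6 of the 7 genes. In the authors' deposited table Cd79a had a log2 fold change of 1.00 (p = 0.0407, adjusted p = 0.158) and Mzb1 1.28 (p = 0.0181, adjusted p = 0.0873) at PPE week 1. The authors' deposited table for PPE week 2 listed 4 of the 7 genes, with Cd79a at 1.00 (p = 0.00936, adjusted p = 0.128), Pou2af1 at 0.70 (adjusted p = 0.347), Jchain at 0.64 (adjusted p = 0.386) and Ms4a1 at -0.02 (adjusted p = 0.981). In neither of the authors' deposited tables did a listed member have an adjusted p under 0.05.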

How the data were processed

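Total RNA of 12 aortas was prepared for sequencing with the TruSeq RNA kit v2, per the labels' protocols, a kit that does not mark strand. Per the submitters' processing notes, bcl2fastq, DESeq2 and mm10 were used, and no aligner, counter or annotation is given in the sources used here. Deposited by the authors were raw counts per RefSeq accession, and tables of their own comparisons with a log2 fold change and p-values. RefSeq's GRCm38.p6 table named 34424 of 34755 accessions and GENCODE 192 more. Between 66.0 and 75.6% of counts of 2 to 20 were even, so halved counts were among the alternatives.

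Accessions with 10 counts at the median library size (1.01 CPM) in 4 libraries were kept, 12756 in all. Counts were scaled by TMM and fitted with edgeR 4.0.16 (quasi-likelihood, robust, R 4.3.3), with 1 mean for each of 3 groups over all 12 libraries and no covariate, and p-values were adjusted by Benjamini-Hochberg over all kept accessions (threshold 0.05). Intervals are at 95%. The 4 libraries of a group are separate mice per the labels, and replicate pairs differed beyond sampling noise. Libraries with the same replicate number did not deviate together (correlations of deviations -0.088 to 0.035), so the numbers were taken as names. Alternatives were DESeq2 1.42.0, limma-voom (limma 3.58.1), other scalings and filters, a replicate block, the NR_046233 row or share, 8 libraries only, summed accessions and leaving out each library. The script was tested on simulated data.

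The 7 genes and all lists were chosen with earlier results of these data known. From each list the called genes were named, at most 4 per comparison, and, with none called, up to 2 genes with the highest mean CPM. For likeness, the 3 tested genes with the highest Pearson r of log2 CPM (prior count 2) were named. CPM per kilobase used the length of the GENCODE transcript paired with each accession. Some genes that these rules name are not reported here, and immunoglobulin chain genes were not analysed here.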

Additional observations from a re-analysis of the deposited data

Results flagged for a closer look

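Among the groups of 4 libraries of the named genes, 54 were examined for 1 library that stood apart, of which 21 were groups of the 7 B and plasma cell genes. A library was listed where its gap to the nearest of the others took up more of the group's range than Dixon's 95% limit for 4 values. That happened in 4 groups. Chance gives about 1 in 20 for normally distributed values, a rate that does not hold for groups in which most counts are 0. Pou2af1 was at 7.53 CPM in replicate 1 of PPE week 1, where the other 3 libraries lay between 1.70 and 2.54 CPM. Tnfrsf13c was at 2.33 CPM in saline replicate 4, with the others at 0 to 0.39 CPM. The other two cases were of genes too low to test. Cd79b was at 0.50 CPM in replicate 4 of PPE week 2 and Mzb1 at 0.13 CPM in saline replicate 4, each with 0 in the other libraries of the group. In such a group any count above 0 is listed. The Mzb1 value was 1 count, below the 0.388 CPM that 3 counts are worth in that library.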

How the results depend on the processing

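Of 23 alternatives, 12 left out a library each. The count of tested B and plasma cell genes called was 0 in each comparison and setting except 1: with scaling by library size only, Cd79a was called higher at PPE week 2 against saline, making that count 1 (log2 fold change 2.76, adjusted p = 0.0288). That scaling raised the median of all features by 0.49 at PPE week 2 and 0.28 at PPE week 1, both against saline, and by 0.21 between the weeks. Over all alternatives the adjusted p of Cd79a at PPE week 2 against saline ran from 0.0288 to 0.949, and its log2 fold change was 1.05 to 2.58 when a library was left out.

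The direction changed as follows, and the cause was not tested. For Ms4a1 at PPE week 1 against saline (-0.33) limma-voom gave 1.06, and leaving out a library gave -0.75 to 0.67. At PPE week 2 against saline (-0.21) library size scaling gave 0.24, and leaving out a library -1.13 to 0.79. Between the weeks (0.12) Ms4a1 was at -0.63 with the NR_046233 share as covariate, -1.67 with limma-voom and -0.79 to 0.53 when a library was left out. Leaving out a library gave -0.13 to 1.46 for Pou2af1 at PPE week 1 against saline, and between the weeks -0.28 to 1.24 for Cd79a, -0.31 to 0.74 for Jchain and -0.50 to 1.92 for Tnfrsf13c, which was at -0.23 with the covariate. Settings that kept all libraries also moved values without turning them. Against saline at PPE week 2, Tnfrsf13c was 0.01 to 2.40, Pou2af1 0.55 to 2.18 and Jchain 0.76 to 3.26. The ranges at PPE week 1 were 0.25 to 1.11 for Tnfrsf13c, 0.18 to 0.84 for Pou2af1 and 0.17 to 1.94 for Jchain.

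With the replicate number as a block, Ms4a1 was at 0.26 at PPE week 1 against saline and -0.97 between the weeks, and the count of B and plasma cell genes called was 0 in each comparison. The block changed no other direction among the 5 tested genes. It ended the calls of Ltb (adjusted p = 0.0629), Irf4 (0.0616) and Edem1 (0.0537).

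The counts of features called by edgeR moved by more than 1.5 times under some settings. For PPE week 2 against saline 166 were higher and 172 lower, with 0 to 1611 and 0 to 343 under other settings. For PPE week 1 against saline 508 were higher and 499 lower, with 23 to 1111 and 59 to 910. Between the weeks 481 were higher and 360 lower, with 54 to 812 and 15 to 651. DESeq2 gave no adjusted p for Tnfrsf13c in 2 comparisons. The 7 genes had 24 to 1328 counts over 12 libraries, and the 5 tested ones a coefficient of variation beyond counting error of 0.714 to 1.48. The share of each in the width of the intervals was not tested.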

Other observations

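The B lineage genes Blk and Pax5 were named after their values were seen. Blk, a Src family kinase of B cells, had 4.66, 15.54, 2.71 and 6.12 CPM at PPE week 2, 2.57, 0, 2.10 and 1.80 CPM at PPE week 1 and 1.31, 1.19, 3.14 and 0.91 CPM in saline. All PPE week 2 libraries were above all PPE week 1 libraries (2.15 ± 0.88, edgeR adjusted p = 0.166), as were those of 7.24% of features. Pax5, the factor that keeps B cell identity, had 6.62, 6.52, 1.14 and 1.30 CPM at PPE week 2, 1.10, 2.88, 1.80 and 0.80 CPM at PPE week 1 and 1.04, 0, 0 and 0 CPM in saline. Its PPE week 2 libraries were all above saline (3.70 ± 1.28, edgeR adjusted p = 0.14), as were those of 4.55% of features. Neither gene passed the adjusted threshold in any of the 3 comparisons. Most tested genes of their lists had lower values at week 2 than at week 1: the log2 fold change between the weeks was above 0 for 3 of 13 B cell surface genes (median -0.62) and for 2 of 9 transcription factors (median -0.57).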
